A study of Mus musculus with 16 samples.

Results

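The superoxide dismutases, catalase and the peroxiredoxins are the enzymes that remove superoxide and hydrogen peroxide. Their signals were followed in homogenised lungs of 3-day-old mouse pups by choosing every array feature whose platform gene symbol is Sod1, Sod2, Sod3, Cat or Prdx1 to Prdx6. All 10 genes were present, on 24 of the 31465 features that name 1 gene, and each had a feature bright enough to be tested, so the 10 stand among 20173 tested genes. The pups were wild type or labelled Fgf10+/-, heterozygous for the gene of fibroblast growth factor 10, a mesenchymal growth factor of lung branching. Within each genotype they stayed in normoxia or breathed 85% oxygen from day 0 to day 3. Each of the 4 groups held 4 one-colour Agilent arrays, 1 per sample, labelled with Cy3 from total RNA. The labels do not give strain, allele, litter or sex. Whether replicates are independent litters is therefore unknown, and p-values reflect the variation among these samples, part of which may be technical. In a whole-lung homogenate, fewer cells of a type and less RNA per cell cannot be told apart.

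Superoxide dismutases turn superoxide into hydrogen peroxide in separate places: Sod1 is the copper-zinc enzyme of the cytosol, Sod2 the manganese enzyme of mitochondria, and Sod3 the secreted copper-zinc enzyme of the matrix and vessel wall, which the lung makes in large amounts. Catalase, in peroxisomes, splits hydrogen peroxide to water and oxygen. Peroxiredoxins reduce peroxides through a reactive cysteine that most of them recharge with thioredoxin. Prdx1 and Prdx2 lie mainly in the cytosol, Prdx3 in mitochondria, Prdx4 in the secretory pathway and Prdx5 in several compartments, while Prdx6 uses glutathione and also acts on surfactant phospholipids.

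The tissue label matched its markers, since the type 2 cell gene Sftpc lay between 15.97 and 15.99 (log2) and the club cell gene Scgb1a1 between 15.87 and 15.98 on the 16 arrays, at the upper end of the scale. Replicate arrays of a group correlated over all tested genes with r from 0.974 to 0.983. Fgf10 itself was not called between the genotypes, standing 0.48 higher in the arrays labelled Fgf10+/- in normoxia (limma adjusted p = 0.334) and at -0.21 in hyperoxia (adjusted p = 0.835). Its levels were 8.28 ± 0.32 against 7.80 ± 0.39 in wild type in normoxia, and 7.64 ± 0.26 against 7.85 ± 0.18 in hyperoxia (log2, SD, n = 4). The feature's position relative to the altered part of the gene is not given, so the genotype names are those of the labels. Read from Eif2s3y and Xist, males made up 1 of 4 and 2 of 4 wild-type pups in normoxia and hyperoxia, and 2 of 4 and 1 of 4 of the pups labelled Fgf10+/-. Replicate 4 of the wild-type normoxia arrays stood apart, since its 9 skeletal muscle genes averaged 8.69 (4.83 to 5.24 on the remaining 3 arrays) and its 5 brown fat genes 7.07 (4.88 to 5.23). No oxygen call of a member in wild type ended when it was left out. Calls in comparisons that do not use this group were not examined without it.

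Promoter sequence was in the RefSeq table (GRCm38.p6) for 8 of the 10 genes, and 3 stretches are shown because their genes differ in response: Sod1 and Sod2 rose in hyperoxia and Prdx1 was not called on its brighter feature. The dimmer Prdx1 feature fell in Fgf10+/-, as described below. Each holds the 250 bases before the annotated start, on the strand of the gene. Capitals mark the core of the antioxidant response element, TGACNNNGC, the site bound by the oxidative stress factor NRF2, and the GC box, GGGCGG, a site of Sp-family factors, each on either strand.
Sod1, chr16:90220512-90220761, plus strand: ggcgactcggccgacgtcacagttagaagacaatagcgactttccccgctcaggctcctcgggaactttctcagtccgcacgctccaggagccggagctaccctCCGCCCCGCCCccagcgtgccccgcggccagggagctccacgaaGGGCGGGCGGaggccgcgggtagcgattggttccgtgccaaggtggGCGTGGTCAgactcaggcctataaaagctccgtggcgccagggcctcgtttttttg
Sod2, chr17:13007589-13007838, plus strand: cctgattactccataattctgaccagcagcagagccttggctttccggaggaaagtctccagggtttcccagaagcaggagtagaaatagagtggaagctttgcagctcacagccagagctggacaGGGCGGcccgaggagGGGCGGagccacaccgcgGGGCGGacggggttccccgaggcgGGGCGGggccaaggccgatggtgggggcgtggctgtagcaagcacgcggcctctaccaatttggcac
Prdx1, chr4:116685349-116685598, plus strand: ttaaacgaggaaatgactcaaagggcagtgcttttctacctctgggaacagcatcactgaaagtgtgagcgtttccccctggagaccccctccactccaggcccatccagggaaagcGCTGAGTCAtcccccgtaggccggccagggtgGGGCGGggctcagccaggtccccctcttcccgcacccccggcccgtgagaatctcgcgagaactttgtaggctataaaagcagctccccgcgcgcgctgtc

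The element core was found in 2 of the 8 promoters. Sod1 carried it as TGACCACGC with its first printed base 56 bases before the start, and Prdx1 as TGACTCAGC 133 bases before the start, both on the opposite strand. Of 32851 promoter stretches of this length, 10.2% held a match. The GC box was found in 7 of the 8, with 4 matches each in Sod1, where neighbours overlap, and in Sod2, and it was absent from the Prdx2 stretch. It occurred in 32.7% of all stretches. A match is a run of letters and not a measured site.

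Most of the 10 genes differed between hyperoxia and normoxia, and in both directions. Slide and run are not stated, and all hyperoxia arrays precede all normoxia arrays in the deposited order. A difference of slide or run that followed this order could not be told apart from oxygen. In wild-type pups Prdx6, Sod2, Prdx3 and Sod1 rose, Prdx4, Prdx2 and Cat fell, and Sod3, Prdx1 and Prdx5 did not pass (limma, adjusted p under 0.05 over all genes, n = 4 arrays per group). That is 7 of 10 called, where 19.1% of all tested genes were called (10.3% higher and 8.74% lower). The groups did not overlap for the same 7, as for 24.8% of all genes. In pups labelled Fgf10+/- the same 4 rises and 3 falls passed and Sod3 rose as well, 8 of 10 against 23.7% of all genes (13% higher and 10.7% lower). The groups did not overlap for 7 of the 10, all but Prdx3 among the 8, as for 24.9% of all genes. The 10 genes lay between the 76.9th and the 98.8th percentile of mean signal, and the shares over all genes were not matched for brightness. The median difference of the 10 genes was 0.05 in wild type and 0.22 in Fgf10+/-, against 0.03 in both for all tested genes. The falls of Cat are read from 1 of its 2 features, and the other moved the opposite way, as described below.

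**Figure D1:**
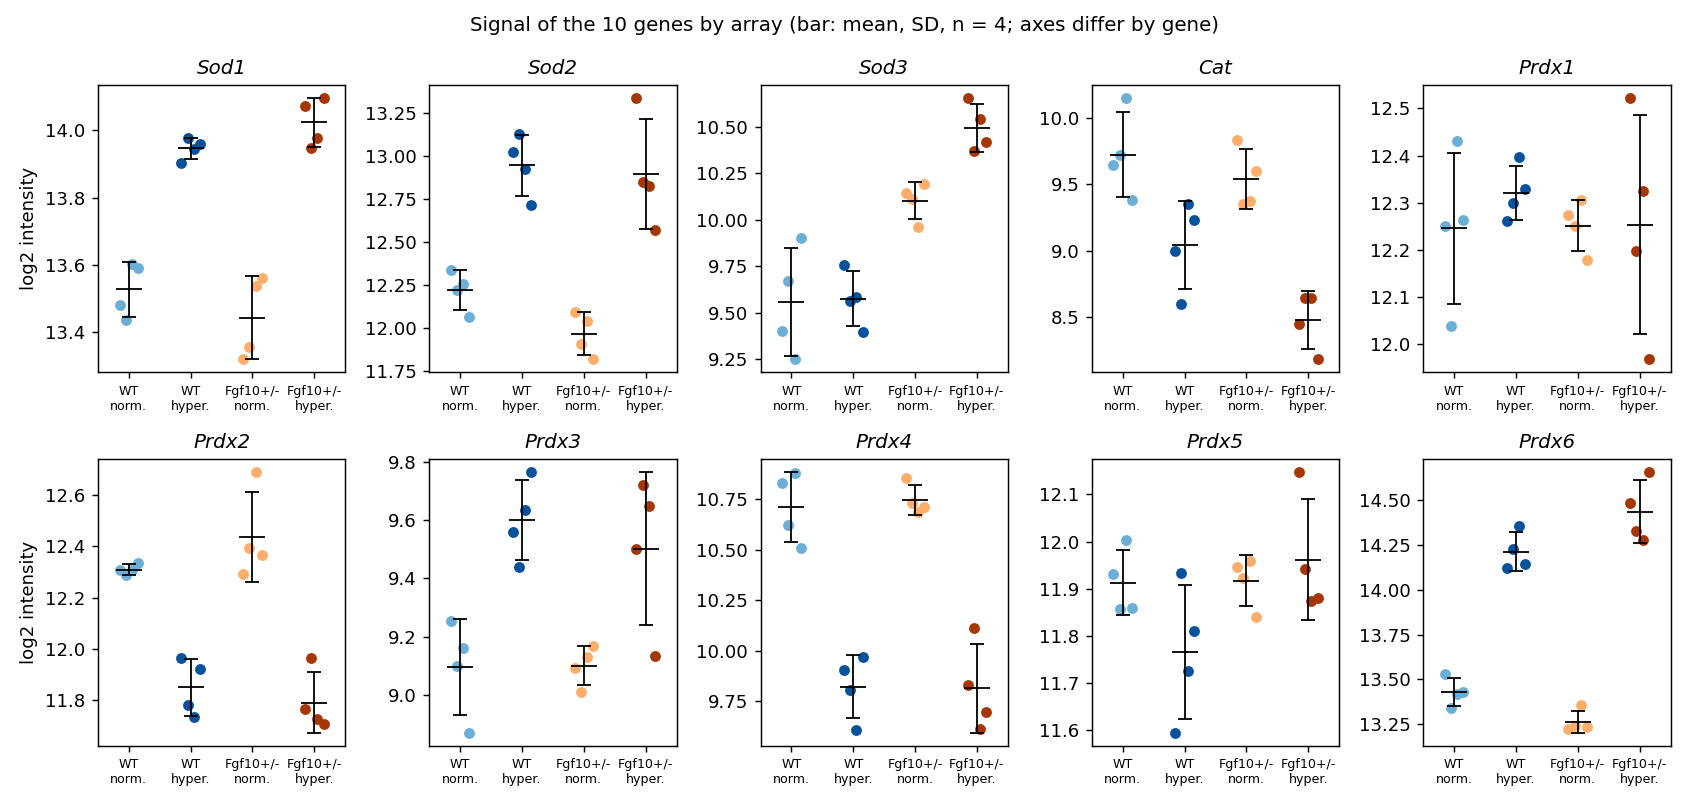
Log2 intensity of the 10 genes on each of the 16 arrays, by group (WT, wild type; norm., normoxia; hyper., hyperoxia); points are arrays, the long bar is the group mean and the whiskers are 1 SD (n = 4), and each panel has its own vertical axis that does not start at 0. Prdx6, Sod1 and Sod2 sit higher and Prdx2 and Prdx4 lower in hyperoxia with no overlap in either genotype, while Sod3 separates the genotypes.

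Sod1, the cytosolic enzyme, rose by a small and even amount. In wild-type normoxia replicates 1 to 4 read 13.48, 13.44, 13.60 and 13.59, and in wild-type hyperoxia 13.90, 13.98, 13.95 and 13.96. In Fgf10+/- normoxia they read 13.32, 13.36, 13.54 and 13.56, and in Fgf10+/- hyperoxia 14.07, 13.95, 13.98 and 14.10. All 8 hyperoxia arrays lay above all 8 normoxia arrays. The rise was 1.34-fold in wild type (log2 0.42, SE 0.08, limma adjusted p = 0.00273) and 1.495-fold in Fgf10+/- (log2 0.58, SE 0.08, adjusted p = 0.00019). The difference between these responses did not pass (interaction 0.16, 95% interval -0.09 to 0.41, adjusted p = 0.845).

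Sod2, the mitochondrial manganese enzyme, rose more, and its hyperoxia arrays were more spread. Wild-type normoxia arrays read 12.34, 12.22, 12.26 and 12.06, and wild-type hyperoxia arrays 13.02, 13.13, 12.93 and 12.71. Fgf10+/- normoxia arrays read 12.09, 11.91, 12.04 and 11.82, and Fgf10+/- hyperoxia arrays 13.34, 12.85, 12.83 and 12.57. Again the lowest hyperoxia array lay above the highest normoxia array in both genotypes. The rise was 1.66-fold in wild type (log2 0.73, SE 0.15, limma adjusted p = 0.00294) and 1.91-fold in Fgf10+/- (log2 0.93, SE 0.15, adjusted p = 0.000367). Within Fgf10+/- hyperoxia the SD was 0.32, against 0.12 in Fgf10+/- normoxia. Replicate 4 was the lowest array of each group. With the replicate numbers fitted as a block, the SE of both differences was 0.108 and both stayed called.

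Sod3, the secreted enzyme, followed genotype more than oxygen. Wild-type arrays read 9.40, 9.67, 9.25 and 9.90 in normoxia and 9.76, 9.56, 9.58 and 9.40 in hyperoxia. Fgf10+/- arrays read 10.14, 10.11, 9.96 and 10.19 in normoxia and 10.66, 10.37, 10.54 and 10.42 in hyperoxia. All 8 Fgf10+/- arrays lay above all 8 wild-type arrays. In hyperoxia Sod3 was 1.90-fold higher in Fgf10+/- than in wild type (log2 0.92, SE 0.13, 95% interval 0.63 to 1.21, limma adjusted p = 0.0127), the 11th smallest p of 20173 genes. It was the 1 member called of 10 in that comparison, where 0.411% of all genes were called (0.292% higher and 0.119% lower). Removing any 1 of the 8 arrays kept the call (adjusted p from 0.0191 to 0.0412), but a fit restricted to those 8 did not (adjusted p = 0.188).

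In normoxia the genotype difference of Sod3 was 1.46-fold (log2 0.55, SE 0.13, 95% interval 0.26 to 0.83) and did not pass (adjusted p = 0.0829). The 8 fits without 1 array gave 0.445 to 0.663 (limma adjusted p from 0.0222 to 0.235), and 1 of them passed. That fit left out replicate 4 of the wild-type normoxia arrays and gave 0.66 with adjusted p = 0.0222. This replicate carries the muscle and brown fat signal and has the highest Sod3 of its group at 9.90. Of all tested genes, 7.53% had groups that did not overlap in that comparison and 5.98% in the genotype comparison in hyperoxia, Sod3 being the 1 member in each. In Fgf10+/- pups Sod3 stood 0.39 higher in hyperoxia (SE 0.13, adjusted p = 0.0458), which did not pass once any of the 8 arrays was removed (adjusted p from 0.0514 to 0.121), and in wild type the difference was 0.02 (95% interval -0.27 to 0.31, adjusted p = 0.948). The test of the difference between those responses did not pass (interaction 0.38, 95% interval -0.03 to 0.78, adjusted p = 0.774).

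Markers of cells that could carry Sod3 were read on the same arrays. Of 6 smooth muscle genes 0 were called by genotype in normoxia or in hyperoxia (summed as a mean, 9.70 to 10.10 and 9.89 to 10.05 in wild-type and Fgf10+/- normoxia, 9.79 to 10.05 and 9.87 to 10.38 in hyperoxia). Of 6 fibroblast genes 0 were called (12.33 to 12.69 and 12.64 to 12.82 in normoxia, 11.85 to 12.13 and 12.01 to 12.46 in hyperoxia). Of 8 type 2 cell genes 5 were lower in Fgf10+/- normoxia and 4 in Fgf10+/- hyperoxia, and their mean did not overlap between genotypes (12.77 to 12.91 against 12.21 to 12.40 in normoxia, 12.91 to 13.06 against 12.57 to 12.65 in hyperoxia). Of 5 genes of dividing cells 4 were higher in Fgf10+/- hyperoxia (6.835 to 7.648 in wild type against 8.04 to 8.85). Over all genes, 0.719% were called by genotype in normoxia and 0.411% in hyperoxia, so 0 of 6 does not show that a cell type was unchanged. Median genotype differences in normoxia and hyperoxia were 0.07 and 0.31 for smooth muscle and 0.28 and 0.23 for fibroblast genes. They were -0.69 and -0.46 for type 2 cell genes and 0.57 and 1.39 for genes of dividing cells. The part of these cells in the Sod3 difference was not tested.

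**Figure D2:**
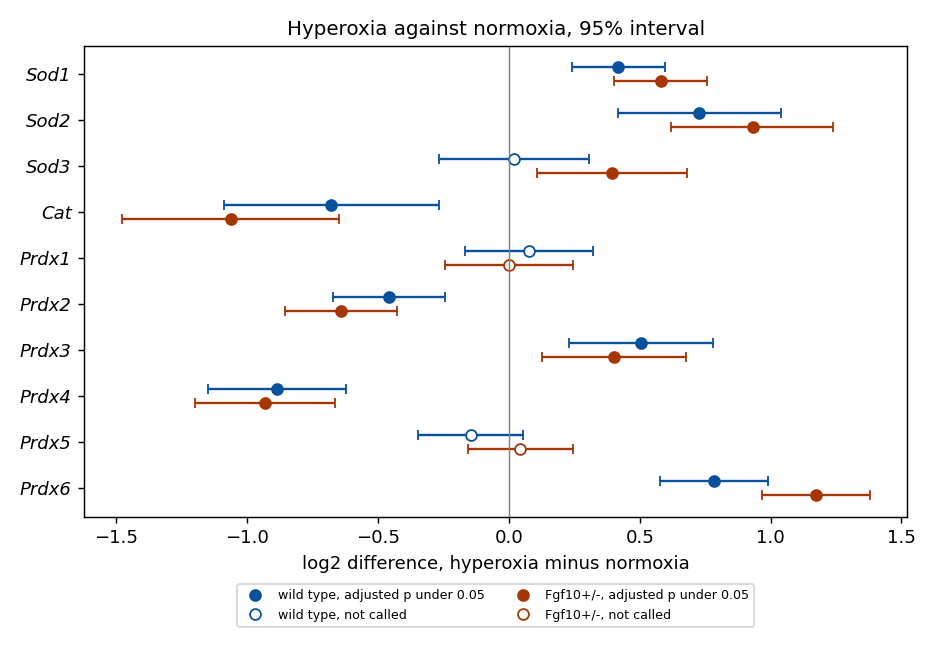
Log2 difference of each gene between hyperoxia and normoxia in wild-type and Fgf10+/- pups, with the 95% interval of the limma fit; filled points passed at an adjusted p under 0.05 and open points did not. Prdx6 has the largest rise in both genotypes (0.78 and 1.17), and Prdx4 (-0.89 and -0.93) and the Cat feature tested (-0.68 and -1.06) have the largest falls.

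Cat gave readings that differ by feature. On the brighter feature, which stands for the gene in the tests, wild-type arrays read 9.64, 9.72, 10.15 and 9.38 in normoxia and 8.998, 8.60, 9.35 and 9.23 in hyperoxia. Fgf10+/- arrays read 9.84, 9.35, 9.37 and 9.60 in normoxia and 8.45, 8.64, 8.65 and 8.18 in hyperoxia. The signal was 1.60-fold lower in hyperoxia in wild type (log2 -0.68, SE 0.19, limma adjusted p = 0.023), with 9.38 as the lowest normoxia and 9.35 as the highest hyperoxia array, and 2.09-fold lower in Fgf10+/- (log2 -1.06, SE 0.19, adjusted p = 0.0011). The wild-type call was lost without replicate 3 of the normoxia arrays or replicates 1 or 2 of the hyperoxia arrays (adjusted p up to 0.0742), and when only the 8 arrays were fitted (adjusted p = 0.0664).

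The dimmer Cat feature, with a mean of 6.60 against 9.20, stood higher in hyperoxia, by 0.43 in wild type (SE 0.20, limma adjusted p = 0.157) and by 0.32 in Fgf10+/- (SE 0.20, adjusted p = 0.289). Averaged over both features the gene was not called (-0.12, adjusted p = 0.649 in wild type, and -0.37, adjusted p = 0.0929 in Fgf10+/-). Both features carry the same RefSeq accession, and their sequences were not used here, so the direction of Cat under hyperoxia is uncertain. By genotype in hyperoxia the features pointed the same way, with -0.57 on the brighter (95% interval -0.98 to -0.16, adjusted p = 0.344) and -0.52 on the dimmer.

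Prdx1 and Prdx2, the cytosolic pair, parted. Prdx1 read between 11.97 and 12.52 on all 16 arrays, and hyperoxia differed from normoxia by 0.08 in wild type (95% interval -0.17 to 0.32, limma adjusted p = 0.718) and by 0.00157 in Fgf10+/- (95% interval -0.24 to 0.25, adjusted p = 0.994). All 4 groups overlapped in the order of their means. A second, dimmer Prdx1 feature (mean 7.64 against 12.27) stood 0.28 lower in wild-type hyperoxia (adjusted p = 0.175) and fell in Fgf10+/- by 0.53 (SE 0.13, adjusted p = 0.0105), so the interval of the brighter feature does not speak for both.

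Prdx2, the form that red blood cells hold in large amounts, fell in both genotypes. Wild-type arrays read 12.31, 12.29, 12.31 and 12.34 in normoxia and 11.96, 11.78, 11.73 and 11.92 in hyperoxia, and Fgf10+/- arrays 12.29, 12.39, 12.69 and 12.37 in normoxia and 11.77, 11.96, 11.73 and 11.71 in hyperoxia. All 8 hyperoxia arrays lay below all 8 normoxia arrays. The signal was 1.37-fold lower in wild type (log2 -0.46, SE 0.10, limma adjusted p = 0.00511) and 1.56-fold lower in Fgf10+/- (log2 -0.64, SE 0.10, adjusted p = 0.000349). Of 7 tested erythroid genes 0 were called in either comparison, with a median difference of 0.39 in wild type and 0.18 in Fgf10+/-. Their mean lay between 8.56 and 9.67 in wild-type normoxia and between 9.49 and 10.05 in wild-type hyperoxia. In Fgf10+/- it lay between 8.38 and 10.61 in normoxia, the widest range, and between 9.27 and 9.94 in hyperoxia. The part of red cells in the fall of Prdx2 was not tested.

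Prdx3, the mitochondrial form, rose in wild type from 9.25, 9.10, 9.16 and 8.87 to 9.56, 9.44, 9.63 and 9.77, a 1.42-fold change (log2 0.50, SE 0.13, limma adjusted p = 0.0132) without overlap. In Fgf10+/- it went from 9.09, 9.01, 9.13 and 9.17 to 9.50, 9.72, 9.65 and 9.13. Replicate 4 of the hyperoxia arrays lay within the normoxia range while the other 3 lay above it. That array also stood apart in 5 heart muscle genes (mean 11.35 against 9.38 to 9.89 in the other 3) and was the lowest of its group for Cat (8.18) and Sod2 (12.57) and the highest for Prdx6 (14.66). The Fgf10+/- change passed (log2 0.40, SE 0.13, adjusted p = 0.0353) but did not after removal of any of 7 of the 8 arrays (adjusted p up to 0.107). Without replicate 4 of the hyperoxia arrays it was 0.52 (adjusted p = 0.0043). Across the 10 Prdx3 features the difference lay between 0.44 and 0.76 in wild type and between 0.32 and 0.50 in Fgf10+/-. All 10 carry the same RefSeq accession, and whether they are repeated spots of 1 probe is not known, so their agreement is not counted as that of separate measurements.

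Prdx4, which works in the secretory pathway during protein folding, fell by similar amounts in both genotypes. Wild-type arrays read 10.83, 10.62, 10.88 and 10.51 in normoxia and 9.90, 9.81, 9.61 and 9.97 in hyperoxia, and Fgf10+/- arrays 10.85, 10.73, 10.68 and 10.71 in normoxia and 9.83, 10.11, 9.61 and 9.70 in hyperoxia. All 8 hyperoxia arrays lay below all 8 normoxia arrays. The signal was 1.85-fold lower in wild type (log2 -0.89, SE 0.12, limma adjusted p = 0.000245) and 1.91-fold lower in Fgf10+/- (log2 -0.93, SE 0.12, adjusted p = 0.000117). The genotypes were close at either oxygen level, with differences of 0.03 in normoxia (95% interval -0.23 to 0.30) and -0.01 in hyperoxia (95% interval -0.27 to 0.26). Prdx4 lies on the X chromosome, and with sex as a covariate the falls remained called. Genes of dividing cells moved the same way, with 5 of 5 lower in hyperoxia in each genotype (median -2.41 in wild type and -1.58 in Fgf10+/-). Among all genes 8.74% were lower in wild type and 10.7% in Fgf10+/-. The part of dividing cells in the falls of Prdx4 and Prdx2 was not tested.

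Prdx5 was not called in any comparison. It read between 11.60 and 12.15 on all arrays, with hyperoxia against normoxia at -0.15 in wild type (95% interval -0.35 to 0.05, limma adjusted p = 0.316) and 0.04 in Fgf10+/- (95% interval -0.16 to 0.24, adjusted p = 0.792). In hyperoxia it stood 0.20 above wild type in Fgf10+/- (95% interval -0.00352 to 0.39, adjusted p = 0.565).

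Prdx6, the form known for turnover of surfactant lipids in type 2 and club cells, had the largest rise. Wild-type arrays read 13.53, 13.34, 13.42 and 13.43 in normoxia and 14.12, 14.23, 14.36 and 14.14 in hyperoxia. Fgf10+/- arrays read 13.22, 13.24, 13.36 and 13.24 in normoxia and 14.49, 14.33, 14.28 and 14.66 in hyperoxia. All 8 hyperoxia arrays lay above all 8 normoxia arrays. The rise was 1.72-fold in wild type (log2 0.78, SE 0.10, 95% interval 0.58 to 0.99, limma adjusted p = 0.000101) and 2.255-fold in Fgf10+/- (log2 1.17, SE 0.10, 95% interval 0.97 to 1.38, adjusted p = 3.48e-06), with the 218th and the 42nd smallest p of all genes.

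The larger Prdx6 rise in Fgf10+/- was not called as a difference (interaction 0.39, 95% interval 0.10 to 0.68, unadjusted p = 0.0126, limma adjusted p = 0.687). The 3 brighter of 4 Prdx6 features gave interactions of 0.39, 0.55 and 0.42, and the dimmest, with a mean of 5.19 near the array median of 4.50, gave -0.45 (SE 0.48). Over all genes 0 interactions were called, and 1335 of 20173, or 6.62%, had an unadjusted p under 0.05. Of the 10 members, Prdx6 alone had one. Of 5 club cell markers 3 rose in wild-type hyperoxia (mean 13.89 to 14.11 in normoxia and 14.64 to 14.78 in hyperoxia) and 4 in Fgf10+/- (13.64 to 13.91 and 14.46 to 14.76). Of 8 type 2 cell markers 2 rose in wild type and 3 in Fgf10+/-. Over all genes 10.3% rose in wild type and 13% in Fgf10+/-. The club cell genes Scgb1a1 (15.87 to 15.98) and Cbr2 (15.37 to 15.99) and the type 2 cell gene Sftpc (15.97 to 15.99) lay near the largest value of the series, 15.99. Little room was left for them to rise, which limits these counts and means. The part of these cells in the rise of Prdx6 was not tested.

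**Figure D3:**
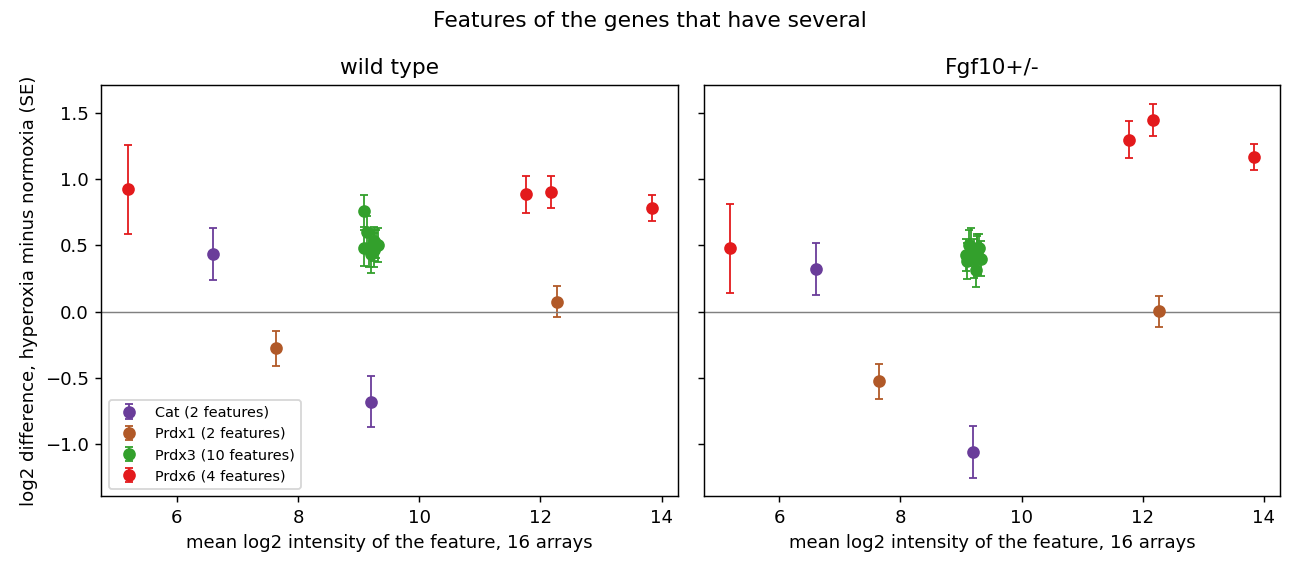
Log2 difference between hyperoxia and normoxia (points; bars are 1 SE of the limma fit) for every feature of the 4 genes with several features, against the mean log2 intensity of the feature over 16 arrays, in wild type (left) and Fgf10+/- (right). The 10 Prdx3 and 4 Prdx6 features lie above 0 in both genotypes, while the 2 Cat features lie on opposite sides of 0 and the dimmer Prdx1 feature lies below the brighter one.

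Apart from Sod3, no member was called between the genotypes. In normoxia 0 of 10 members were called between the genotypes, where 0.719% of all genes were called (0.114% higher and 0.605% lower), and 1 member, Sod3, had an unadjusted limma p under 0.05 (12.9% of all genes had). In hyperoxia 3 members, Sod3, Cat and Prdx6, had an unadjusted p under 0.05, as had 9.01% of all genes, while Cat stood at -0.57 (95% interval -0.98 to -0.16, adjusted p = 0.344) and Prdx6 stood 0.22 higher in Fgf10+/- (95% interval 0.02 to 0.43, adjusted p = 0.5). Sod1 differed by -0.08 in normoxia and 0.08 in hyperoxia, and Sod2 by -0.25 and -0.05, with intervals that include 0. The median of the 10 differences was 0.00451 in normoxia and -0.03 in hyperoxia, against -0.00279 and -0.00518 over all genes. By range, wild-type and Fgf10+/- arrays overlapped at the same oxygen level for each of the 9 members other than Sod3.

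**Figure D4:**
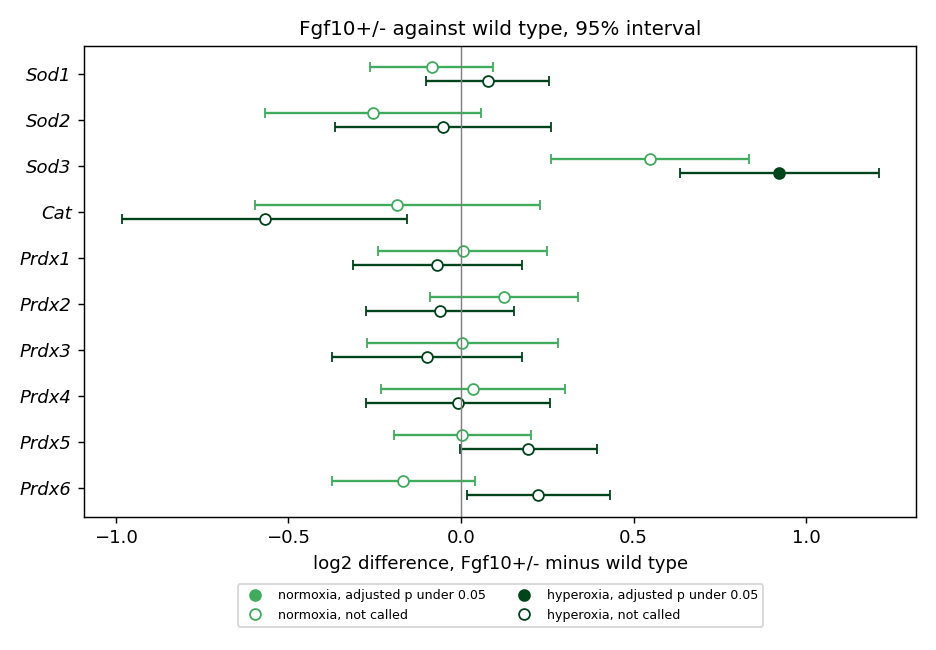
Log2 difference of each gene between Fgf10+/- and wild-type pups in normoxia and in hyperoxia, with the 95% interval of the limma fit; the filled point passed at an adjusted p under 0.05 and open points did not. Sod3 lies furthest to the right at both oxygen levels (0.55 and 0.92), and the interval of Cat in hyperoxia lies below 0 without a call.

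The members varied little within their groups. The pooled SD within groups lay between 0.08 for Sod1 and 0.28 for Cat, against a median of 0.29 over all tested genes, so that all 10 were below that median. All 10 were also bright, from the 76.9th percentile of mean signal (Cat) to the 98.8th (Prdx6), and that median was not matched for brightness. Across the 16 arrays the members formed opposed sets. Sod1 and Prdx6 had the highest correlation of the 45 pairs (Pearson r = 0.967) and Prdx4 and Prdx6 the lowest (-0.938), while Prdx2 and Prdx4 stood at 0.923. With group means removed these became 0.466, -0.286 and 0.372. All values come from the same 16 arrays and share the oxygen groups, and they are given as a description.

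The genes whose pattern over the 16 arrays was most like each member were named by the highest Pearson r. For Sod1 it was Creg1 (r = 0.959), for Sod2 Aldh3b1 (0.983), an aldehyde dehydrogenase, and Slc39a4 (0.978), a zinc transporter, and for Prdx6 the actin-severing gene Gsn (0.978), followed by Mab21l4 (0.973) and the glycolytic aldolase Aldoa (0.971). Aldh3b1 kept r = 0.91 with Sod2 after group means were removed, and Slc39a4 kept 0.863. Over the 3 most correlated genes of every member, r after this removal ran from 0.321, for Mab21l4 with Prdx6, to that 0.91. Creg1 with Sod1 stood at 0.471. For Cat it was the arrestin family gene Arrdc3 (0.968), for Prdx2 Shisa4 (0.966) and Selenof (0.961), a selenoprotein of the endoplasmic reticulum, for Prdx3 Chmp2a (0.932), and for Prdx4 the tubulin Tubb4a (0.978). For Sod3 it was Serping1 (0.875), the complement C1 inhibitor. For Prdx1 it was Pcbd2 (0.826) and for Prdx5 Serpinb6c (0.866). Neither Prdx1, on its brighter feature, nor Prdx5 was called under oxygen.

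The thioredoxin and glutaredoxin system, which recharges peroxiredoxins, moved in both directions. Of 15 genes 5 rose and 3 fell in wild-type hyperoxia, and 6 rose and 2 fell in Fgf10+/-, with medians of 0.31 and 0.14. The shares over all genes were 10.3% higher and 8.74% lower in wild type, and 13% and 10.7% in Fgf10+/-. Srxn1, sulfiredoxin, which repairs over-oxidised peroxiredoxins, rose from 7.96 ± 0.26 to 9.18 ± 0.28 in wild type (log2, SD, n = 4; difference 1.21, limma adjusted p = 0.00104) and from 8.17 ± 0.35 to 9.34 ± 0.33 in Fgf10+/- (1.17, adjusted p = 0.000993). Sesn2, a stress-induced sestrin, rose by 0.82 and 1.07, whereas its relative Sesn3 stood at -0.50 and -0.69 and Txnip, the inhibitor of thioredoxin, at -0.94 and -1.03, all called. Among genes chosen after their values were seen, the reductases Txnrd1 (0.43 and 0.29) and Txnrd2 (0.48 and 0.43) and mitochondrial thioredoxin Txn2 (0.52 and 0.34) rose in both genotypes, while cytosolic thioredoxin Txn1 stood at -0.13 in each (adjusted p = 0.425 and 0.431).

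Of 13 tested genes of peroxisome assembly and membrane, the compartment of catalase, 6 rose, 0 fell and 7 did not pass in each genotype, where 10.3% of all genes rose in wild type and 13% in Fgf10+/-. The medians were 0.40 and 0.37. The import receptors Pex7 (0.89, SE 0.11, and 0.74, SE 0.11) and Pex5 (0.65 and 0.52), which carry enzymes into peroxisomes, were among those that rose in both, with Pex16 (0.77 and 0.81) and Pex2 (0.58 and 0.37). Named after their values were seen, Pex13 (-0.15 and -0.19) and Pex14 (-0.33 and -0.07) stood below 0 without a call.

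Of 7 genes that supply copper or manganese, 1 rose and 0 fell in each genotype, where 10.3% of all genes rose in wild type and 13% in Fgf10+/-. The 1 that rose was the copper importer Slc31a1 (0.45 in both, limma adjusted p = 0.0102 in wild type and 0.00779 in Fgf10+/-). Ccs, the chaperone that loads copper into Sod1, stood at 0.00959 in wild type and 0.15 in Fgf10+/-, and the mitochondrial carrier Slc25a3 at -0.21 and -0.23, none of these called. The manganese exporter Slc30a10 was below the array median in every group (2.86 to 3.88), so its difference was not read.

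Among 15 tested oxidases that make superoxide or hydrogen peroxide, 2 rose and 1 fell in wild type and 5 rose and 0 fell in Fgf10+/-. Over all genes 10.3% rose and 8.74% fell in wild type, and 13% rose and 10.7% fell in Fgf10+/-. Aldehyde oxidase Aox1 rose by 1.64 (SE 0.15) and 1.88 (SE 0.15) and monoamine oxidase Maob by 0.55 and 0.57, both called in both genotypes. Noxo1, an organiser of NADPH oxidase, stood at 0.61 in wild type (limma adjusted p = 0.0516) and rose by 0.76 in Fgf10+/- (adjusted p = 0.0147), and the oxidase subunit Cyba stood at 0.30 and 0.28 without a call. Chosen after their values were seen, the others called were Nox4, which stood at -0.41 in wild type, and Xdh (0.79) and Lox (0.67), which rose in Fgf10+/-.

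Of 9 transcription factors and partners known to act on these genes, 3 rose and 0 fell in wild type and 1 rose and 0 fell in Fgf10+/-. Among all genes 10.3% rose and 8.74% fell in wild type, and 13% rose and 10.7% fell in Fgf10+/-. Ppargc1a, the coactivator of mitochondrial genes, rose by 1.06 and 1.38 (limma adjusted p = 0.00857 and 0.00115). Keap1, the NRF2 inhibitor, rose by 0.51 in wild type and stood at 0.30 in Fgf10+/- (adjusted p = 0.0673), and Foxo3 rose by 0.73 and stood at 0.31 (adjusted p = 0.215), with no interaction called. Nfkb1 stood at -0.13 and -0.44 without a call. The transcript of NRF2 itself, Nfe2l2, named here after its value was seen, stood at -0.08 and -0.10 (adjusted p = 0.568 and 0.437).

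**Figure D5:**
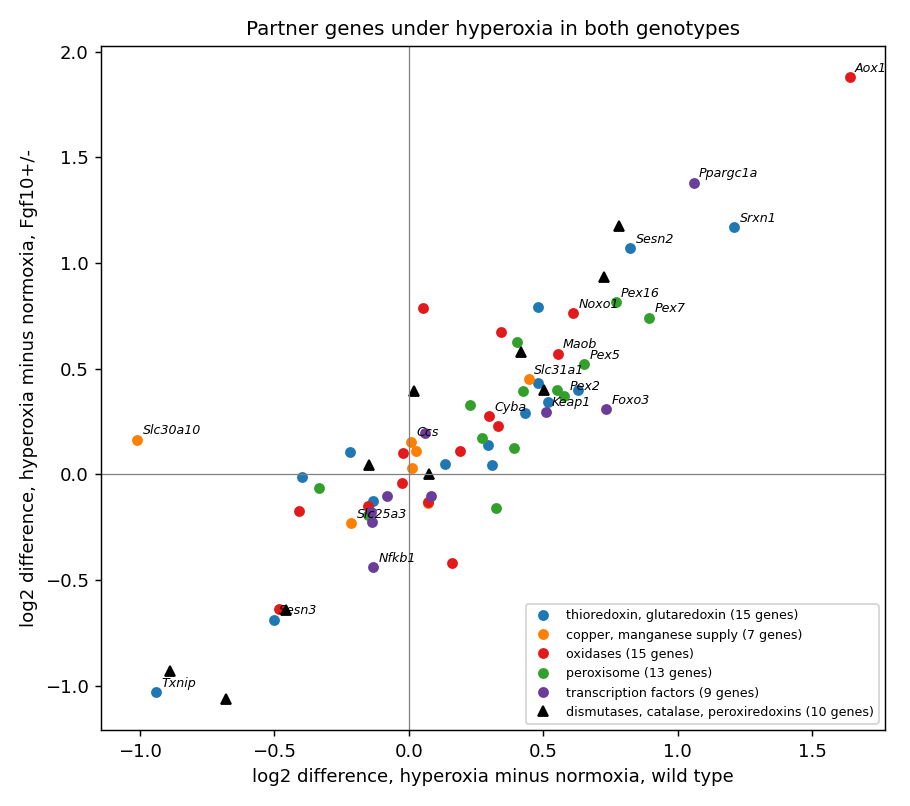
Log2 difference between hyperoxia and normoxia in wild type (horizontal) and in Fgf10+/- (vertical) for the 59 tested genes of the 5 partner lists (circles, coloured by list) and the 10 dismutase, catalase and peroxiredoxin genes (triangles); the 4 genes named per list are labelled. Aox1, Ppargc1a and Srxn1 lie furthest to the upper right and Txnip, at -0.94 and -1.03, lies at the lower left near the triangles of Cat and Prdx4.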

How the data were processed

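The authors deposited 1 table of log2 intensities of 62976 features from 16 one-colour Agilent arrays, per the labels with Cy3 and total RNA. Array medians lay between 4.4996 and 4.5003, so the values were read as normalized between arrays. The sources used here do not state background correction, normalization, slide or scan. All hyperoxia arrays precede all normoxia arrays in the deposited order, so a batch that followed it could not be told apart from oxygen. Values were used as deposited. Of 31465 features with 1 gene symbol in the platform annotation, 29050 took their name from the RefSeq accession (GRCm38.p6), whether or not it changed. Of the others, 2061 were named by a current symbol and 349 by a synonym, and 5 kept their name. A further 31511 features had no symbol. Features entered if they exceeded the 25th percentile on 4 or more of the 16 arrays, and the brightest entry, that with the highest mean, stood for its gene.

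limma 3.58.1 in R 4.3.3 fitted 1 mean per group over all 16 arrays (12 residual and 2.129 prior degrees of freedom), with Benjamini-Hochberg adjustment per contrast over 20173 genes and calls under 0.05. The script was tested on simulated data. Named were all members, per partner list the 4 genes with the smallest p for oxygen averaged over genotypes, and per member the 3 most correlated genes, of which the text gives the first or more. The search for correlated genes left out members, sex-linked genes and genes with only a clone or model name. Members and lists were chosen with earlier results of these data known. The marker lists for skeletal and heart muscle, brown fat, smooth muscle, type 1, type 2, club, ciliated, erythroid, macrophage, neutrophil, endothelial, fibroblast and dividing cells were read on the same arrays. Replicate numbers are shared by the groups, but none of 24 same-number residual correlations over all tested genes exceeded 0.1 (-0.03 to 0.09). The numbers were therefore not taken as pairs in the main fit. Correlations over all genes do not speak for single members such as Sod2, whose replicate 4 was the lowest of each group. Alternatives were the filter, the mean over features, 2 rescalings, trend and robust moderation, and array weights. Further ones were sex, a replicate block and a fit to the 8 arrays compared. Each array of the groups compared was also left out in turn. Testing each feature on its own was chosen after seeing the data. Promoter sequences came from RefSeq. The number of arrays limits the precision.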

Additional observations from a re-analysis of the deposited data

Results flagged for a closer look

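Of 40 sets of 4 arrays (10 members in 4 groups), 1 held an array far from the others relative to the range of its group. Prdx6 in Fgf10+/- normoxia read 13.36 in replicate 3, with 0.888 of the range of that group lying between it and the next array. Chance marks about 1 in 20 such sets. The group was narrow, from 13.22 to 13.36, and the hyperoxia arrays of the same genotype lay between 14.28 and 14.66.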

How the results depend on the processing

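Of 16 calls of a member, 11 kept direction and threshold under all 10 alternatives named in the processing and all 8 fits without 1 array: Sod1, Sod2, Prdx2, Prdx4 and Prdx6 under hyperoxia in both genotypes, and Prdx3 in wild type. The exceptions were Cat in both genotypes, Prdx3 and Sod3 under hyperoxia in Fgf10+/-, and Sod3 by genotype in hyperoxia. The cause of a change was not tested.

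The count of members higher in Fgf10+/- hyperoxia (5) was 3 with the common 75th percentile, with quantile normalization and with the replicate block, where Sod3 (0.363, 0.352 and 0.395) and Prdx3 (0.368, 0.362 and 0.4) did not pass, and 3 to 4 without 1 array. With the replicate block as the only paired analysis, no other call of a member changed. The count of members higher in Fgf10+/- normoxia (0) was 1, Sod3, with the filter at the 50th percentile (adjusted p = 0.046), trend and robust moderation (0.0105) and array weights (0.0368), and 0 to 1 without 1 array. The count higher in Fgf10+/- hyperoxia against wild type (1) was 0 in the fit to the 8 arrays compared. Over all genes, calls by genotype ranged from 0 to 433 in normoxia (145 as reported) and from 0 to 223 in hyperoxia (83), with 0 in the fit to 8 arrays.

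Reversals of sign under hyperoxia concerned the other feature of Cat (0.434 in wild type and 0.322 in Fgf10+/-) and of Prdx1 (-0.278 and -0.526), the mean of features of Prdx1 (-0.101 and -0.262), Sod3 in wild type with the 75th percentile (-0.00326) and quantile normalization (-0.012), and Prdx1 in Fgf10+/- with the 75th percentile (-0.0304), quantile normalization (-0.054) and sex (-0.00983). By genotype in normoxia, Prdx3 reversed with the mean of features (-0.0241) and array weights (-0.0312) and Prdx5 with array weights (-0.00945). Of these, the second Prdx1 feature in Fgf10+/- passed the threshold.

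Without 1 array, the following uncalled differences crossed 0. Under hyperoxia these were Sod3 in wild type (-0.0828 to 0.136), and Prdx1 (-0.088 to 0.0963) and Prdx5 (-0.0183 to 0.0727) in Fgf10+/-. By genotype in normoxia they were Prdx1 (-0.0635 to 0.0672), Prdx3 (-0.071 to 0.0572), Prdx4 (-0.032 to 0.0913) and Prdx5 (-0.0136 to 0.0347). By genotype in hyperoxia they were Sod2 (-0.199 to 0.0569), Prdx1 (-0.158 to 0.0264), Prdx3 (-0.172 to 0.0244) and Prdx4 (-0.108 to 0.0594). In the interaction they were Prdx1 (-0.164 to 0.0205), Prdx3 (-0.176 to 0.02) and Prdx4 (-0.142 to 0.0247).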

Other observations

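The remaining marker lists differed in how many of their genes were called under oxygen, where 19.1% of all genes were called in wild type and 23.7% in Fgf10+/-. Of 6 ciliated cell genes 4 rose in wild-type hyperoxia and 5 in pups labelled Fgf10+/- (medians 1.24 and 1.41), and of 6 type 1 cell genes 4 and 5 rose (0.54 and 0.62). Of 6 fibroblast genes 3 and 2 fell (-0.34 and -0.35) and of 6 endothelial genes 2 fell in each genotype (-0.05 and -0.02). Of 7 macrophage genes 1 rose and 1 fell in each genotype, and of 6 neutrophil genes 0 were called. Of 5 heart muscle genes 2 fell in wild type and 0 in Fgf10+/-, where replicate 4 of the hyperoxia arrays stood at a mean of 11.35 against 9.38 to 9.89 in the other 3. Of 9 skeletal muscle genes 0 were called, and of 5 brown fat genes 1 rose in Fgf10+/-.

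By genotype, Nxn, nucleoredoxin, stood 0.52 higher in Fgf10+/- hyperoxia (limma adjusted p = 0.026), and Txnrd3, a thioredoxin reductase, was lower in Fgf10+/- normoxia (-0.68, adjusted p = 0.0463), the 2 calls among the 59 partner genes. Both were named after their values were seen. Over all genes, 0.719% were called by genotype in normoxia and 0.411% in hyperoxia.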
